A study of Mus musculus with 8 samples.

Results

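The genes described here are 38 chaperones and protein folding genes, taken as a set by symbol: HSP90 and its cochaperones, HSP70 and HSP110 proteins and their regulators, J-domain proteins, a small heat shock protein, the mitochondrial chaperones, the CCT chaperonin, and the folding enzymes of the endoplasmic reticulum. Probes for 36 of the 38 were found among the 19057 symbols on the array, and Hsp90ab1 and Dnajb11 were not analysed here. For each gene the brightest probe by its mean over the 8 arrays was used. Its other probes served as a check. The genes were chosen by symbol, but with earlier results of these data known.

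The study asked how the Sin3a/HDAC co-repressor works with the transcription factor Nanog in reprogramming, and measured RNA on Illumina bead arrays at day 0. All 4 groups were female mouse pre-iPSCs (cells partway between a somatic and a pluripotent state) of a 129/MF1 background, derived from neural stem cells, with an Oct4-GFP-IRES-puro reporter and grown in serum with LIF. Every group was a stable line with PiggyBac vectors driven by the CAG promoter after drug selection with hygromycin, blasticidin or both, and each group had 2 arrays: EV held empty vectors only, Nanog held Nanog and an empty vector, Sin3a held Sin3a and an empty vector, and Nanog+Sin3a held both genes. Nothing in the labels ties the arrays of a group to separate cultures. Each p-value is therefore read against the spread between arrays alone, which may be technical. CAG drives expression in most cell types, so the transgene levels are not those of the native genes.

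Chaperones bind proteins that are unfolded or partly folded and help them reach or regain their shape. HSP70 proteins, guided by J-domain proteins, take up new chains, and HSP90 with its cochaperones finishes and holds ready signalling proteins such as steroid receptors and kinases, while the barrel-shaped CCT complex folds actin and tubulin. The heat shock factor Hsf1 switches on many of these genes under stress, and a separate set in the endoplasmic reticulum answers to unfolded protein there. Pluripotent stem cells are known for high chaperone levels.

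Both transgenes were seen on the arrays. The Nanog probe read -3.6 and -5.4 in EV, 365 and 486 in Nanog, -7.3 and -12.2 in Sin3a, and 289.5 and 285 in Nanog+Sin3a. The Sin3a probe read 329 and 262 in EV, 344 and 472.5 in Nanog, 1182 and 1142 in Sin3a, and 1485 and 1483 in Nanog+Sin3a. Of the 7 markers of pluripotent cells, 4 (Pou5f1, Klf4, Dppa5a, Sall4) lay above the floor of 16 (the intensity to which lower values were raised) on all 7 arrays other than the second Sin3a array, and Esrrb lay at or below it on all 7. The sum of the 7 was 1531.2 to 1654.9 in EV, 1370.2 to 1541.5 in Nanog and 1261.4 to 1427.6 in Nanog+Sin3a, and Sall4 read 258 and 226 in EV, 171 and 135 in Nanog, 293 and 417 in Sin3a, and 88.5 and 98.5 in Nanog+Sin3a. Sall4 fell by 1.37 with both genes (limma adjusted p = 0.00850). Of the other markers above the floor on all 7, Klf4 and Dppa5a differed by 0.33 and 0.29 with both genes and Pou5f1 by -0.17, and none of them passed. Of the 6 neural stem cell markers only Nes was above the floor on all 7, and Pax6, Olig2, Fabp7 and Slc1a3 were above it on none. The neural stem cell sum was 105.6 to 108 in EV, 80.3 to 93.9 in Nanog and 60.3 to 63.2 in Nanog+Sin3a, and Nes fell by 0.78 with both genes (limma adjusted p = 0.0355). The groups with Nanog also lay apart from EV in the sums of the 6 mesenchyme markers (215.6 to 238.6 in EV, 509.3 to 549.3 in Nanog and 434.4 to 481.4 in Nanog+Sin3a, with Thy1 the only member above the floor on all 7 and Col1a2, Col3a1 and Pdgfrb at or below it on all 7) and of the 4 primitive endoderm markers (1256.5 to 1380.6, 852.6 to 1032.6 and 722.8 to 762.4, with Dab2 above and Gata4, Gata6 and Sox17 at or below the floor on all 7). The 4 epithelial markers summed to 1139.3 to 1148.5, 824.3 to 835.6 and 925.7 to 1221.6 in the same groups, with Krt8 above the floor on all 7 and Epcam and Krt18 above it on none. Thy1 rose by 1.13 with Nanog and 0.75 with both genes (limma adjusted p = 0.0101 and 0.0195), and Dab2 fell by 0.83 with both genes (limma adjusted p = 0.0132). Dcn, a mesenchyme marker, read 14.3 and -3.1 in EV and 92.6 and 79.4 in Nanog+Sin3a. The part of these cell type markers in the results below was not tested. In bulk RNA, fewer cells of a type and less RNA per cell cannot be told apart.

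The second Sin3a array decided which tests were possible. For the 18 bright members (a mean log2 intensity above 9), the median replicate difference was 0.10 on the log2 scale in Sin3a, against 0.14 in each of the other groups. For the 14 dimmer members with a mean log2 value between 5 and 9 it was 2.00 in Sin3a, against 0.17 in EV, 0.17 in Nanog and 0.21 in Nanog+Sin3a. Comparisons without the Sin3a group were therefore fitted on the 7 other arrays over 12886 features, where 35 of the 36 members could be tested, and comparisons with it on all 8 arrays over the 2300 bright features, which include 18 members. Canx, the membrane lectin calnexin, read between -18.9 and -4.3 on those 7 arrays and was not tested. All differences below are log2 differences of floored intensity, tested with limma and adjusted by the Benjamini-Hochberg method over all features of the fit.

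Promoter sequence was available for 33 of the members as RefSeq windows of build GRCm38.p6, covering 250 bases before and 50 bases from each transcript start. The heat shock element is the known binding motif of Hsf1 and was searched as 2 units (GAANNTTC or TTCNNGAA, each its own reverse complement) and as 3 units (GAANNTTCNNGAA or TTCNNGAANNTTC), where every 3-unit match also holds a 2-unit match. The ER stress response element, known from genes of the unfolded protein response, was searched as CCAAT, 9 bases of any kind and CCACG on either strand. At least 1 window with the 2-unit motif was found for 12 of 33 members (Bag3, Cct2, Cct5, Cct6a, Cdc37, Dnaja1, Dnajb6, Fkbp4, Hspb1, Hspd1, Hspe1 and Hsph1), against 16.973% of all 27025 genes with a window, and for 15.056% of all 32851 windows. The 3-unit motif was found for 4 of 33 members (Dnajb6, Hspd1, Hspe1 and Hsph1), against 0.662% of genes and 0.603% of windows. The ER stress response element was found for 5 of 33 members, all of them among the 8 members that work in the endoplasmic reticulum (Calr, Canx, Hsp90b1, Hspa5 and Pdia6), against 0.137% of genes and 0.119% of windows. The Hspd1 and Hspe1 windows overlap on opposite strands of chromosome 1, so their matches are partly the same bases. A match describes the letters only, and its absence says nothing of the factor.

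The 250 bases before the start are shown for 4 members with a window, those that passed a test on 7 arrays below, and for Hsp90b1 as the member with 2 ER stress response elements. Capitals mark the matches. Fkbp4 lies at chr6:128438657-128438906 on the minus strand, with 1 match of the 2-unit motif. Hspe1 lies at chr1:55087898-55088147 on the plus strand, with 3 overlapping 2-unit matches that form 2 matches of the 3-unit motif.
Fkbp4: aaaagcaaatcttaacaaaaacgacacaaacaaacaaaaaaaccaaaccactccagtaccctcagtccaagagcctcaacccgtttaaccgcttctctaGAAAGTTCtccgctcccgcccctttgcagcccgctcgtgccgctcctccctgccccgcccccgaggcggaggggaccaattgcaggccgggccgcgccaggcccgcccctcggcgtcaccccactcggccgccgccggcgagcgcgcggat
Hspe1: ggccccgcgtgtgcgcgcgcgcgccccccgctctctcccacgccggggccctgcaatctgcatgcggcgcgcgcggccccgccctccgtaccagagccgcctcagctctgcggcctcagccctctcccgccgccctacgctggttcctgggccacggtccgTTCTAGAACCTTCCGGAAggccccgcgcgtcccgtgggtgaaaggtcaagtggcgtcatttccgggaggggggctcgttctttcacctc
Cct5 lies at chr15:31601847-31602096 on the minus strand, with 1 match of the 2-unit motif. Ptges3 lies at chr10:128058732-128058981 on the plus strand, with no match. Hsp90b1 lies at chr10:86705445-86705694 on the minus strand, with 2 matches of the ER stress response element, 1 in each orientation.
Cct5: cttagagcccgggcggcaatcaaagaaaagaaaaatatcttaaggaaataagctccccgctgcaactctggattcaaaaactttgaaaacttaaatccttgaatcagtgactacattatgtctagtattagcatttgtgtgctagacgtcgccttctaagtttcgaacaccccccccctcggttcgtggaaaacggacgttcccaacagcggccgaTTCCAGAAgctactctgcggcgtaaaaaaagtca
Ptges3: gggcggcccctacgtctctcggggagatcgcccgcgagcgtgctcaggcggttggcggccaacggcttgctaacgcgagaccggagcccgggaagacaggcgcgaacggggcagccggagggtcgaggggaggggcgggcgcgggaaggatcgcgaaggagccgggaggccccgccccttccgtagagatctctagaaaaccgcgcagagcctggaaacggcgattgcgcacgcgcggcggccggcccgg
Hsp90b1: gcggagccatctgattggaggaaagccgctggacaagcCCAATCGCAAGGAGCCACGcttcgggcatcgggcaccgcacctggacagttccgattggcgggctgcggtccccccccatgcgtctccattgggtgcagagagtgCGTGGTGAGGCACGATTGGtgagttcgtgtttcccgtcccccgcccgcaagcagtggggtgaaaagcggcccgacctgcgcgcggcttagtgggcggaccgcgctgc

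With Nanog alone, 1 member rose and none fell among the 35 tested, where 2.69% of all features passed in either direction. The member that rose was Fkbp4, an HSP90 cochaperone of steroid receptors, and 11 of 35 members had an unadjusted p under 0.05, against 19.5% of all features. With Nanog and Sin3a together, 1 member rose, again Fkbp4, and 4 fell: Hsp90aa1, Ptges3, Hspe1 and Cct5. Of all features 3.78% rose and 3.67% fell in that comparison. An unadjusted p under 0.05 was found for 10 of 35 members and 26.0% of all features. Both comparisons used the same EV arrays. The median member difference was -0.10 with Nanog and -0.17 with both genes, against 0.00 and 0.01 over all features. In each comparison 25 of 35 members lay below 0, against 48.4% of all features with Nanog and 47.9% with both genes. A fall of the members as a set was not tested. Leaving out 1 array changed the counts of members that passed. The Nanog count was 0 without any of the EV, Nanog or Nanog+Sin3a arrays. The count for both genes was 0 without the first or second EV array, the first Nanog array, or the first or second Nanog+Sin3a array, 1 without the second Nanog array and 6 without the first Sin3a array. Calls over all features moved in the same runs. They fell in both comparisons without any 1 of the EV, Nanog or Nanog+Sin3a arrays. Without the first Sin3a array they rose, from 347 to 395 with Nanog and from 960 to 1009 with both genes. The changed member counts are therefore no result about the members.

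**Figure D1:**
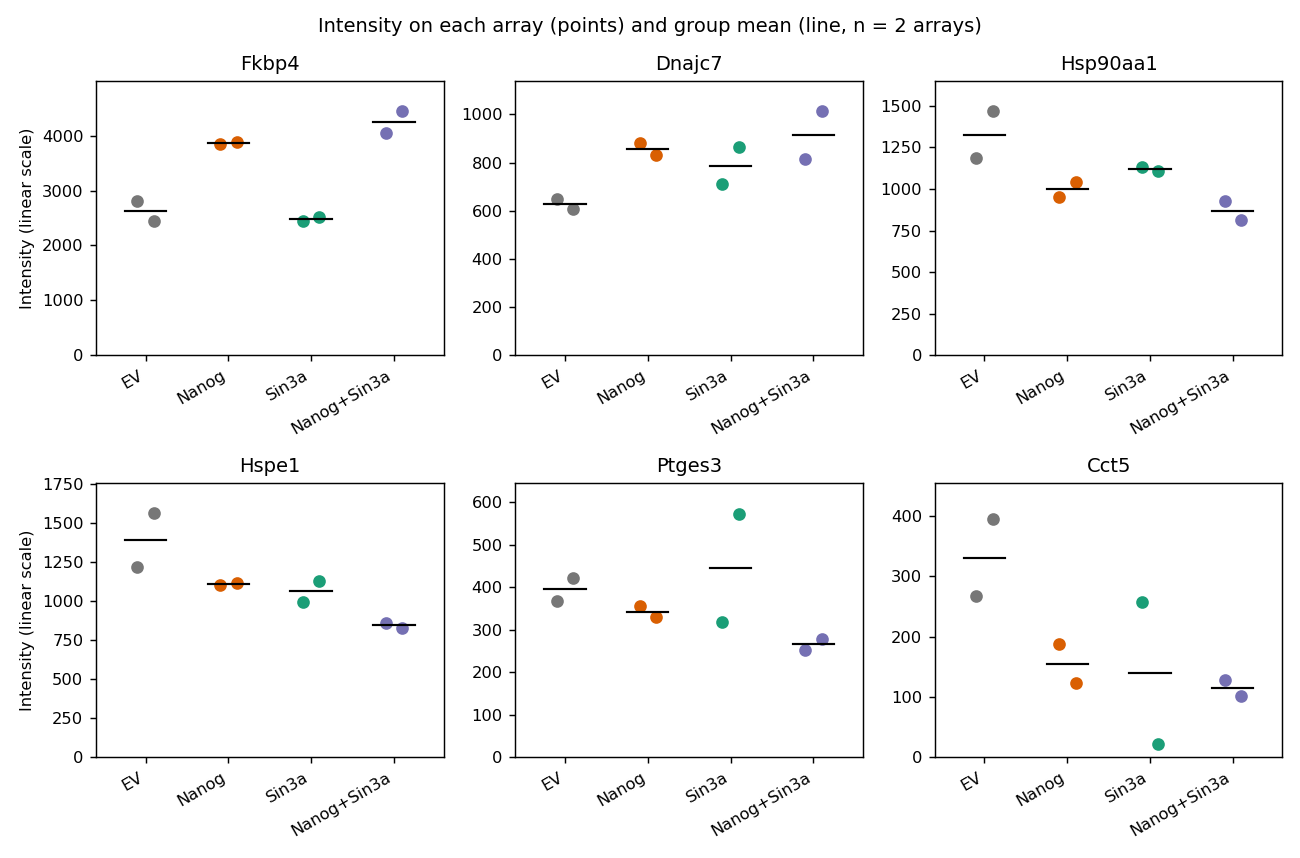
Intensity on each of the 8 arrays (linear axis from 0, points) for Fkbp4, Dnajc7, Hsp90aa1, Hspe1, Ptges3 and Cct5, 1 panel per gene, by group, with the group mean as a line. Fkbp4 was between 3837 and 4439 on the 4 arrays with Nanog and between 2442 and 2814 on the 4 without, while the dim genes Ptges3 and Cct5 show the wide spread between the Sin3a arrays.

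HSP90 and its cochaperones held the 1 rise and 2 of the 4 falls. Fkbp4, a prolyl isomerase that carries steroid receptors on HSP90, read 2814 and 2442 in EV, 3837 and 3874 in Nanog, 2454 and 2518 in Sin3a, and 4049.8 and 4439 in Nanog+Sin3a. All 4 arrays with Nanog lay above all 4 without it. It rose by 0.56 with Nanog (SE 0.0998, 1.47-fold, 95% interval 0.32 to 0.80, limma adjusted p = 0.0451) and by 0.69 with both genes (1.62-fold, interval 0.45 to 0.93, limma adjusted p = 0.0157). The group means were 2628 ± 263 in EV, 3856 ± 26.0 in Nanog, 2486 ± 45.1 in Sin3a and 4244 ± 275 in Nanog+Sin3a (SD, n = 2). With the replicate block the rise with Nanog had a limma adjusted p of 0.0890.

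Hsp90aa1, the stress-inducible cytosolic HSP90, read 1187 and 1466 in EV, 954 and 1043 in Nanog, 1132 and 1105.5 in Sin3a, and 927 and 812 in Nanog+Sin3a. The highest array with Nanog was below the lowest array without it. It fell by 0.60 with both genes (SE 0.129, 1.52-fold, interval -0.92 to -0.29, limma adjusted p = 0.0441), and the difference with Nanog alone was -0.40 (limma adjusted p = 0.163). The latter was -0.25 without the second EV array and -0.61 for the mean of all probes. With the replicate block the fall with both genes had a limma adjusted p of 0.0692. A dimmer probe of the gene read 262 and 395 in EV, 132 and 108 in Nanog, 276 and 210 in Sin3a, and 109 and 69.7 in Nanog+Sin3a. Its difference was -1.43 with Nanog (limma adjusted p = 0.0634) and -1.88 with both genes (limma adjusted p = 0.0201). Both probes were thus lower, and the dimmer probe had the larger log2 difference. The separate fit of each probe was chosen after seeing the data, so its p-values are not read as support. The third probe lay between -7.1 and 17.3 outside the second Sin3a array, where it read 245.

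Ptges3, the cochaperone p23 that steadies the closed form of HSP90, read 369 and 423 in EV, 356 and 329 in Nanog, 319 and 571.5 in Sin3a, and 252 and 279 in Nanog+Sin3a. Both Nanog+Sin3a arrays were below all other arrays, and the Sin3a arrays enclosed the EV range. It fell by 0.57 with both genes (SE 0.116, 1.49-fold, limma adjusted p = 0.0380) and differed by -0.21 with Nanog alone (limma adjusted p = 0.391). With the replicate block the fall had a limma adjusted p of 0.0652. The other cochaperones did not pass. Stip1, which links HSP70 to HSP90, ranged from 2029 to 2775 on the 7 arrays, Ahsa1, which speeds the HSP90 ATPase, from 619 to 794, and Cdc37, which brings kinases, from 56.3 to 95.6. Fkbp5, a relative of Fkbp4 and a known glucocorticoid target, ranged from 129.9 to 158.5, with differences of -0.01 and -0.17. Over the 7 tested genes the median difference was -0.12 with Nanog and -0.26 with both genes.

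**Figure D2:**
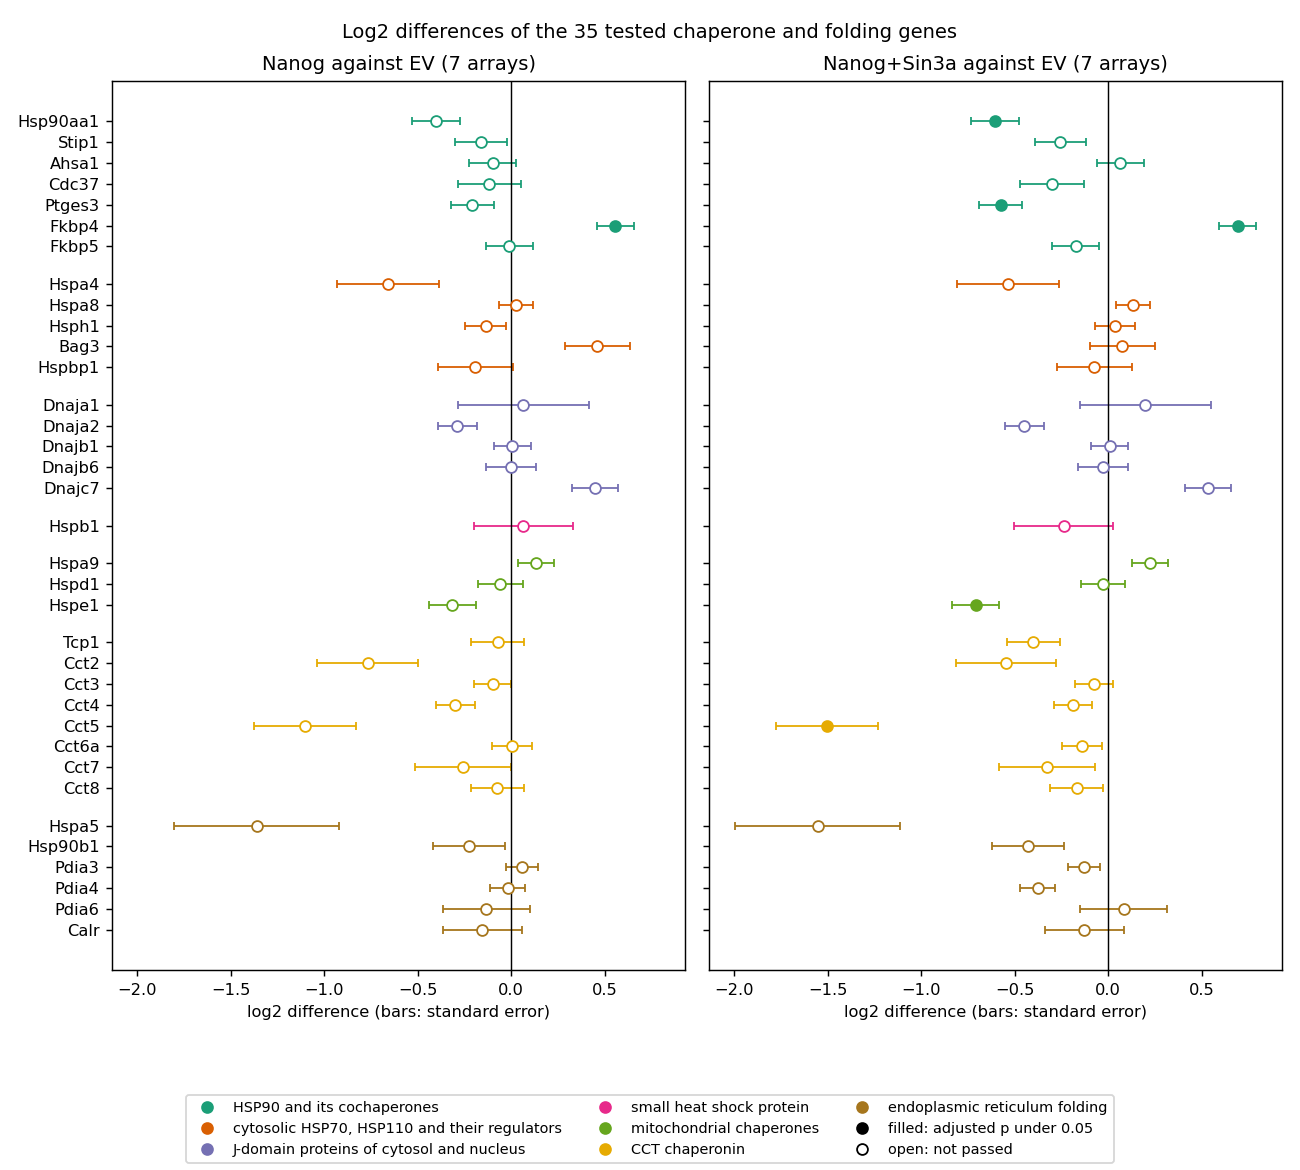
Log2 difference from EV (points, with SE bars) of the 35 tested members, grouped by role, for Nanog and for Nanog+Sin3a; filled points passed an adjusted p of 0.05. Fkbp4 is the only filled point for Nanog, and Fkbp4, Hsp90aa1, Ptges3, Hspe1 and Cct5 are filled for Nanog+Sin3a.

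None of the 5 cytosolic HSP70 and HSP110 genes passed in either comparison on its brightest probe. Hspa8, the constitutive HSP70, read 7974 and 7269 in EV, 7718 and 7772 in Nanog, 7974 and 8241 in Sin3a, and 8085 and 8644 in Nanog+Sin3a. The differences from EV were 0.02 with Nanog and 0.13 with both genes (limma adjusted p = 0.923 and 0.402). Another probe of Hspa8 read 3770 and 4498 in EV, 3239 and 1873 in Nanog, 3537 and 3732 in Sin3a, and 2077 and 1907 in Nanog+Sin3a. Its difference was -1.05 with both genes (limma adjusted p = 0.0595 on 7 arrays and 0.000166 among bright probes) and -0.74 with Nanog (0.182 and 0.00698). The third probe differed by -0.11 in each comparison. These fits of single probes were chosen after seeing the data. The probes of this gene thus did not give 1 direction, so its level is uncertain. Hspa8 has many near-identical copies in the genome, and whether the probes read them was not tested.

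Hspa4, an HSP110-type exchange factor, read 239 and 235 in EV, 143 and 158 in Nanog, 189 and 44.1 in Sin3a, and 223 and 120.2 in Nanog+Sin3a. Both Nanog arrays were below the EV arrays, and the Nanog+Sin3a arrays lay on either side of the Nanog arrays (difference -0.66 with Nanog, limma adjusted p = 0.255). Hsph1, the other HSP110 protein, ranged from 1320.4 to 1762 on the 7 arrays and Hspbp1, an HSP70 exchange factor, from 149.6 to 224. Bag3, an HSP70 cochaperone in selective autophagy, read -17.5 and 13.2 in EV, 23.8 and 20.4 in Nanog, 1.3 and 1.2 in Sin3a, and 17.8 and -2.2 in Nanog+Sin3a. Only the Nanog arrays were both above the floor of 16 (difference 0.46, limma adjusted p = 0.217).

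Of the 5 J-domain genes, which bring substrates to HSP70 and start its ATPase, none passed on 7 arrays. Dnajc7, which binds both HSP70 and HSP90, read 650 and 605.5 in EV, 882 and 831 in Nanog, 709.5 and 864 in Sin3a, and 815 and 1015 in Nanog+Sin3a. All arrays of the 3 groups with a transgene were above both EV arrays. The differences were 0.45 with Nanog and 0.54 with both genes (limma adjusted p = 0.120 and 0.0515), and they passed among the bright features of all 8 arrays (0.0448 and 0.0108). Dnaja2, a major cytosolic J-domain protein, read 267 and 254 in EV, 213 and 213 in Nanog, 217 and 58.1 in Sin3a, and 184.5 and 198 in Nanog+Sin3a. Both EV arrays were above both arrays of Nanog and of Nanog+Sin3a (differences -0.29 and -0.45, limma adjusted p = 0.203 and 0.0548). A second Dnaja2 probe read 40.6 and 37 in EV and was below the floor on all 4 arrays with Nanog. It passed in both comparisons (limma adjusted p = 0.0235 and 0.0160), with no fold given against values below the floor. Those 4 values were all raised to 16, so they show no spread between arrays. The separate fit of each probe was also chosen after seeing the data. These p-values are therefore not read as support for a fall of Dnaja2, whose brightest probe did not pass. The remaining probe differed by -0.32 and -0.66 and did not pass.

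Dnajb1, the classical stress-inducible J-domain protein, read between 1046 and 1216 on the 7 arrays, with differences of 0.01 in both comparisons. Dnajb6, an aggregation suppressor, ranged from 378 to 457. Dnaja1 and the small heat shock protein Hspb1, which holds unfolded proteins without ATP, stayed at or below 28.9 and 24.3 on the 7 arrays, near the floor. Their readings on the second Sin3a array were 222 and 142.

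Among the 3 mitochondrial chaperones, Hspe1 fell and the others did not pass. Hspe1, the lid of the Hspd1 folding chamber, read 1214 and 1560 in EV, 1102.5 and 1112 in Nanog, 991 and 1129.9 in Sin3a, and 859 and 826 in Nanog+Sin3a. Both Nanog+Sin3a arrays were below all others, and both EV arrays were above all others. It fell by 0.71 with both genes (SE 0.126, 1.63-fold, interval -1.01 to -0.41, limma adjusted p = 0.0275), and the difference with Nanog was -0.31 (limma adjusted p = 0.240). Hspd1, the chamber itself, whose promoter shares the heat shock elements shown for Hspe1, read 3912.5 and 3848 in EV, 4189 and 3314 in Nanog, 4009 and 4021 in Sin3a, and 3778 and 3837 in Nanog+Sin3a. The groups overlapped for Nanog, and the difference with both genes was -0.03. A second Hspd1 probe differed by -0.27 and -0.33 (limma adjusted p = 0.260 and 0.135). Hspa9, the mitochondrial HSP70, read 5343 and 4798 in EV, 5682 and 5438 in Nanog, 4939 and 5161 in Sin3a, and 6223 and 5629.6 in Nanog+Sin3a. All 4 arrays with Nanog were above all 4 without, but the differences were 0.13 and 0.23 (limma adjusted p = 0.505 and 0.208), and a second probe differed by 0.06 and 0.05.

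The 8 CCT genes encode subunits of 1 ring-shaped complex. Their brightest probes lay below 0 for 7 of 8 with Nanog (median -0.18) and for 8 of 8 with both genes (median -0.26), and 1 of them passed. Over all features 48.4% lay below 0 with Nanog and 47.9% with both genes. Cct5 read 267 and 395 in EV, 188 and 122 in Nanog, 258 and 21.3 in Sin3a, and 129 and 102 in Nanog+Sin3a. The Nanog and Nanog+Sin3a arrays were all below both EV arrays, and the Sin3a arrays were far apart. It fell by 1.51 with both genes (SE 0.273, 2.84-fold, interval -2.16 to -0.85, limma adjusted p = 0.0288), and the difference with Nanog was -1.10 (limma adjusted p = 0.101). Its intensity lay in the range where the second Sin3a array was noisy, and with all 8 arrays and all features the limma adjusted p was 0.851.

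Tcp1, the first CCT subunit, read 2472 and 2486 in EV, 2340.3 and 2377 in Nanog, 2434 and 2415.5 in Sin3a, and 1613 and 2188 in Nanog+Sin3a. The 4 arrays with Nanog were below the 4 without, by a narrow margin in Nanog. The difference with both genes was -0.40 (limma adjusted p = 0.140 on 7 arrays and 0.0285 among bright features). It was -0.18 without the first Nanog+Sin3a array, -0.62 without the second, and -0.65 for the mean of both probes (limma adjusted p = 0.0276). A dimmer probe read 298 and 374 in EV, 227 and 207 in Nanog, 236 and 416 in Sin3a, and 194 and 166 in Nanog+Sin3a. This Tcp1 probe fell by 0.89 with both genes (limma adjusted p = 0.0274), in the probe fit chosen after seeing the data. Cct4 read 4214 and 3797 in EV, 3454 and 3065 in Nanog, 3722 and 4009 in Sin3a, and 3371 and 3648 in Nanog+Sin3a. Here too the 4 arrays with Nanog were below the 4 without, with differences of -0.30 and -0.19 that did not pass (limma adjusted p = 0.186 and 0.302). Cct2 ranged from 40.4 to 83.2 and Cct7 from 41.2 to 85.3 on the 7 arrays, and Cct8 from 2068 to 2707. Probes of the same gene can differ widely in intensity, as in Tcp1, so these readings do not rank the subunits by level. Cct3 and Cct6a were nearly flat, with the brightest probes between -0.14 and 0.01 and a second probe of each between 0.02 and 0.11. For these 2 genes the probes differed in sign in 3 of 4 cases.

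**Figure D3:**
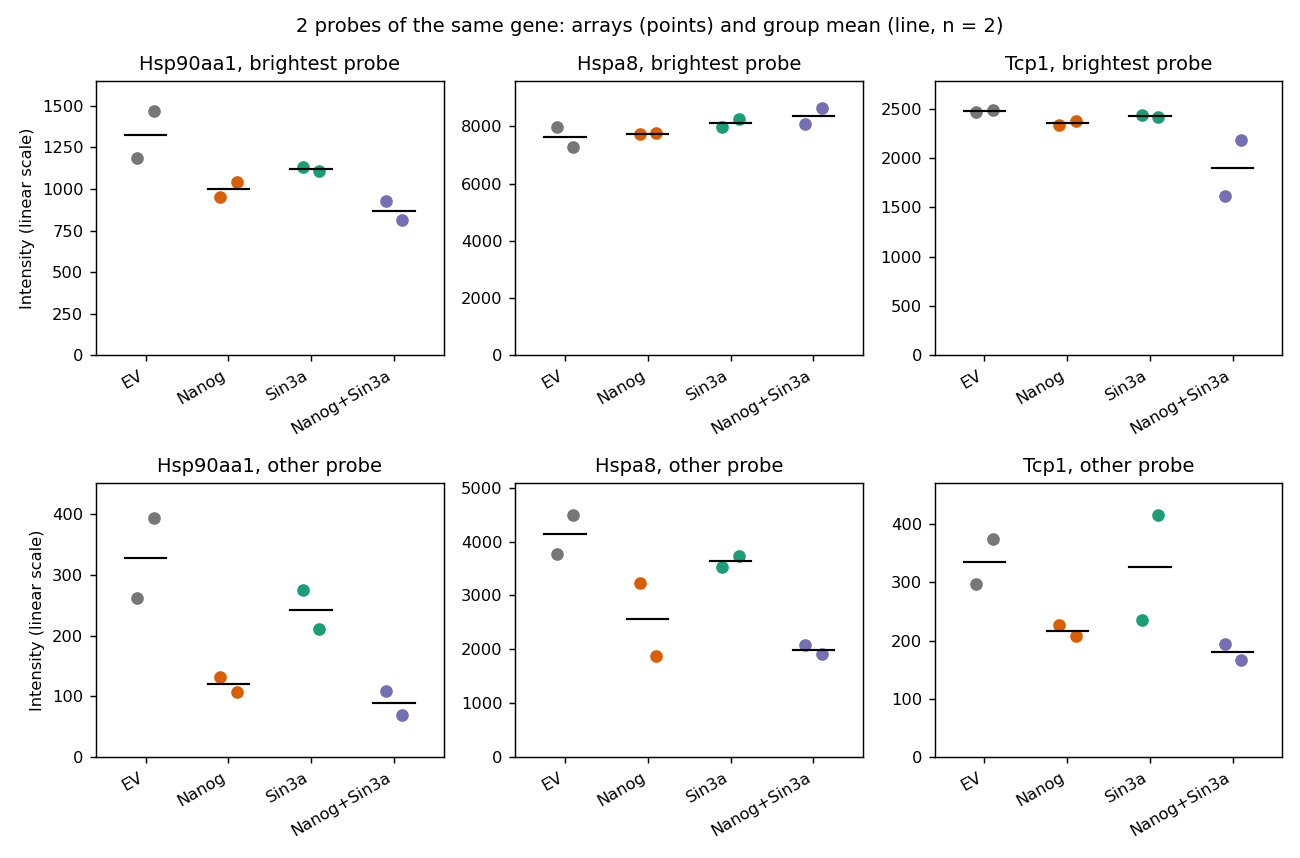
Intensity on the 8 arrays (linear axis from 0) by group, with the group mean as a line, for 2 probes each of Hsp90aa1, Hspa8 and Tcp1: the brightest probe and the other probe with the lowest difference between Nanog and EV, which was picked after its values were seen. The other probe of Hspa8 is between 1873 and 3239 on the 4 arrays with Nanog and between 3537 and 4498 on the 4 without, while the brightest probe is between 7269 and 8644 throughout.

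In the endoplasmic reticulum 0 of 6 tested members passed in either comparison with limma on 7 arrays, and 1 and 2 of them had an unadjusted p under 0.05 with Nanog and with both genes, against 19.5% and 26.0% of all features. Hspa5, the HSP70 of this compartment (BiP) and a classical target of the unfolded protein response, read 87.5 and 108 in EV, 57.5 and 24.9 in Nanog, 86.7 and 5.8 in Sin3a, and 25.2 and 43.5 in Nanog+Sin3a. All 4 arrays with Nanog were below both EV arrays and the first Sin3a array. The differences of -1.36 and -1.55 were the lowest of all members, but their SE was 0.441 at this low intensity (limma adjusted p = 0.166 and 0.0858). Hsp90b1, the HSP90 of the compartment (Grp94), read 2129 and 2841 in EV, 2397 and 1850.5 in Nanog, 2291 and 2594 in Sin3a, and 2041 and 1639.6 in Nanog+Sin3a. The Nanog arrays overlapped the EV arrays, the Nanog+Sin3a arrays did not, and the difference with both genes was -0.43 (limma adjusted p = 0.226 on 7 arrays and 0.0486 among bright features). Leaving out the second EV array gave -0.22, and leaving out the second Nanog+Sin3a array gave -0.27.

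Pdia4, a protein disulfide isomerase, read 317 and 320.5 in EV, 306 and 324 in Nanog, 288 and 253 in Sin3a, and 244 and 247 in Nanog+Sin3a. Both Nanog+Sin3a arrays were the lowest, with a difference of -0.38 (limma adjusted p = 0.0632). Pdia3, the isomerase that works with calnexin and calreticulin, ranged from 2129 to 2581 on the 7 arrays. Pdia6, another isomerase, ranged from 82.4 to 128, and Calr, calreticulin, from 192 to 293. Of the 5 genes with an ER stress response element in their window, 4 were tested, and their differences with both genes ran from -1.55 for Hspa5 to 0.08 for Pdia6.

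**Figure D4:**
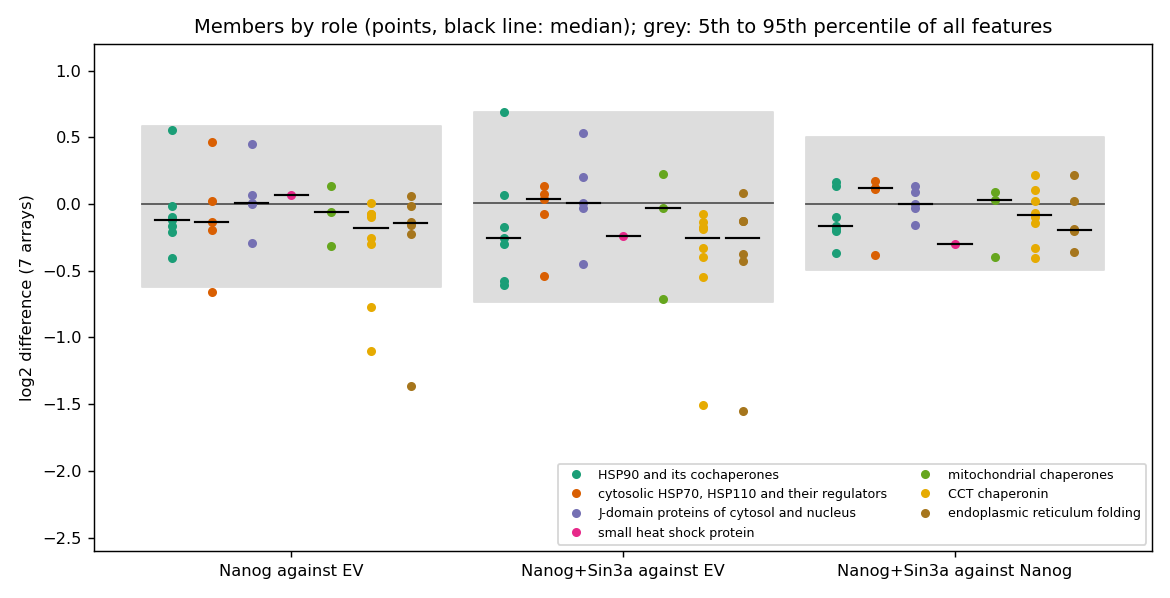
Log2 differences of the members (points) by role group in 3 comparisons, with the range from the 5th to the 95th percentile of all features of the fit as a band. With both genes against EV all features span -0.74 to 0.69, and Hspa5 and Cct5 lie below that band, while Fkbp4 is at its upper edge.

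Adding Sin3a to Nanog called 0 of 35 members with limma, where 0.0155% of all features passed. An unadjusted p under 0.05 was found for 3 of 35 members, against 10.97% of all features. These 3 were Pdia4 at -0.36 (interval -0.59 to -0.13, limma adjusted p = 0.277), Ptges3 at -0.37 (interval -0.65 to -0.09, limma adjusted p = 0.341) and Hspe1 at -0.39 (interval -0.70 to -0.09, limma adjusted p = 0.344). In each of them both Nanog+Sin3a arrays were below both Nanog arrays. They were picked by this same comparison, so that separation adds no support, and none of the 3 passed. So the falls of Ptges3 and Hspe1 with both genes, and their smaller differences with Nanog alone, were not shown to differ from each other.

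Sin3a alone called 0 of the 18 bright members with limma, where 0.174% of bright features passed. An unadjusted p under 0.05 was found for 2 of 18 members, against 7.83% of bright features. Hspe1 differed by -0.38 (interval -0.64 to -0.11, limma adjusted p = 0.450) and Dnajc7 by 0.32 (interval 0.03 to 0.60, limma adjusted p = 0.586). For Fkbp4 the difference was -0.08 (interval -0.28 to 0.13). The median of the 18 was -0.01.

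Adding Nanog to Sin3a called 1 of 18 members, where 11.6% of bright features passed, and 7 had an unadjusted p under 0.05, against 29.0% of bright features. Fkbp4 rose by 0.77 (SE 0.0995, 1.71-fold, interval 0.56 to 0.98, limma adjusted p = 4.39e-05). The lowest differences were -0.41 for Hsp90b1 (limma adjusted p = 0.0655), -0.37 for Tcp1 (0.0520) and -0.37 for Hsp90aa1 (0.0598). The Sin3a and Nanog+Sin3a arrays did not overlap in any of the 3, which adds no support because they were picked as the lowest. Without either Nanog array, which leaves the compared groups whole, 5 members passed, and without the second Nanog+Sin3a array 2 did. The interaction compares the Sin3a effect in the presence and in the absence of Nanog. It called 0 of 18 members with limma, where 0.0435% of bright features passed, and 0 had an unadjusted p under 0.05, against 6.52% of bright features. For Fkbp4 it was 0.21 (interval -0.08 to 0.51) and for Hsp90aa1 0.04 (interval -0.33 to 0.41).

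On all 8 arrays, the bright members were also counted against EV. With Nanog, Fkbp4 and Dnajc7 rose, 2 of 18 where 4.57% of bright features rose, and Hsp90aa1 fell, 1 of 18 where 5.09% fell. With both genes, Fkbp4 and Dnajc7 rose, 2 of 18 where 8.09% rose, and Hsp90aa1, Hspe1, Tcp1 and Hsp90b1 fell, 4 of 18 where 8.96% fell. Separation by Nanog was also counted over all arrays. In 2 of 18 bright members, Fkbp4 and Hspa9, all 4 arrays with Nanog were above all 4 without, where 13.2% of bright features were. In 3 of 18, Cct4, Hsp90aa1 and Tcp1, all 4 were below, where 12.0% of bright features were. Both counts are near the background share and are no result about the members.

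A further 97 folding genes were listed, of which 92 had a probe and 72 were tested on 7 arrays; Hsf1 had no probe and was not analysed here. With Nanog 0 of 72 passed with limma, against 2.69% of all features, and 18 had an unadjusted p under 0.05, against 19.5%. With both genes 3 rose and 0 fell, against 3.78% and 3.67% of all features, and 20 had an unadjusted p under 0.05, against 26.0%. The median was 0.04, against -0.17 for the members. Cryab, a small heat shock protein, read 45.2 and 53.5 in EV, 95.7 and 63.9 in Nanog, 87.4 and -5.8 in Sin3a, and 103 and 137.5 in Nanog+Sin3a. All arrays with Nanog were above both EV arrays, and it rose by 1.27 with both genes (2.42-fold, limma adjusted p = 0.0378). Hspb6, another small heat shock protein, read 819 and 709.5 in EV, 976 and 957 in Nanog, 947 and 1046 in Sin3a, and 1035 and 1075 in Nanog+Sin3a. The EV arrays were the 2 lowest, and it rose by 0.47 (limma adjusted p = 0.0392). Dnajb2, a J-domain protein, read 81.1 and 74 in EV, 105 and 107 in Nanog, 80.4 and -6.2 in Sin3a, and 121 and 129 in Nanog+Sin3a. It rose by 0.69 (limma adjusted p = 0.0388), with the Nanog arrays between EV and Nanog+Sin3a.

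Of the 33 other folding genes among the bright features, 3 rose and 1 fell with both genes, where 8.09% of bright features rose and 8.96% fell. They were Hspb6, Txndc5 (0.38) and Dnajc10 (0.55), both disulfide enzymes of the endoplasmic reticulum, and Prkcsh (-0.40, limma adjusted p = 0.0139). Txndc5 (0.43, limma adjusted p = 0.0290) and Dnajc10 (0.44, limma adjusted p = 0.0474) also rose with Nanog alone. No other gene of the 33 passed with Nanog alone, where 4.57% of bright features rose and 5.09% fell. Prkcsh is a subunit of the glucosidase that trims new glycoproteins. Prkcsh read 2018 and 2214 in EV, 1920.2 and 1765 in Nanog, 2083.5 and 2041 in Sin3a, and 1554 and 1654 in Nanog+Sin3a. Both Nanog+Sin3a arrays were the lowest. Its partner subunit Ganab read 1047 and 1025 in EV, 913 and 924.5 in Nanog, 1102 and 1101 in Sin3a, and 889 and 832 in Nanog+Sin3a. Against Sin3a, Prkcsh fell by 0.36 (limma adjusted p = 0.0286) and Ganab fell by 0.36 (limma adjusted p = 0.0438) when Nanog was added. No other gene of the 33 passed there, where 11.6% of bright features passed. In Ganab the 4 arrays with Nanog were below the 4 without, where 12.0% of bright features were. The other probes of Prkcsh and Ganab were not examined. Hsf2, the heat shock factor measured here, read 65.5 and 57.1 in EV, 41.9 and 35.4 in Nanog, 64.3 and 25.6 in Sin3a, and 62.5 and 52.2 in Nanog+Sin3a and did not pass.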

How the data were processed

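RNA was measured on 8 Illumina bead arrays, 2 in each of 4 groups. The deposited values are intensity per probe, made by the authors with GenomeStudio per the submitters' processing notes; the version, the background correction and the normalization are not given in the sources used here. The values ran from -24 to 14965 on a linear scale, so a background had been subtracted, and above the floor the sorted values differed from those of the first EV array by at most 0.935%, or 4.31% on the second Sin3a array. Values were raised to a floor of 16, converted to log2 and not normalized again. Of 45281 probes 34885 had 1 symbol, 18 several and 10378 none; probes without 1 symbol stayed as unnamed features. Features above the floor on at least 2 arrays entered a limma fit (version 3.58.1 under R 4.3.3, with lmFit, eBayes with an intensity trend, 1 coefficient per group, 3 residual degrees of freedom on 7 arrays and 4 on 8), two-sided, with Benjamini-Hochberg adjustment at 0.05 over all features. The fit was tested on data simulated with changes of 1 log2 unit, larger than most differences reported here, and smaller changes were not simulated. The number of arrays limits the precision.

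All members could be named, with values on every array for those that passed and, in each role, for the extremes; of the other folding genes, up to 4 that passed per comparison, and Hsf1. Hsf2 was added after its values were seen. The members and lists were chosen with earlier results of these data known. Alternatives were the arrays used, array weights, normalization, floor, filter, trend, probe choice, the replicate block and leaving out each array. The fit of each probe as its own feature was chosen after seeing the data.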

Additional observations from a re-analysis of the deposited data

How the results depend on the processing

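The count of members that passed with Nanog (1) became 0 with 8 arrays and all features, with no filter, with features above the floor in all arrays of a group, without the intensity trend, with the mean of all probes and with the replicate block; it was 3 among bright features and 2 with array weights. The count with both genes against EV (5) became 1 with 8 arrays and all features, 9 with array weights, 8 with a floor of 32, 0 with no filter, 3 with features above the floor in all arrays of a group, 2 without the trend and 3 with the replicate block. The count with both genes against Sin3a (1) became 0 with array weights, 2 with quantile normalization and 0 with no filter. Leaving out 1 array gave 0 to 1, 0 to 6 and 1 to 5 in these comparisons. The other 3 comparisons kept a count of 0 in every alternative. The cause of these shifts was not tested. The numbers of calls over all features moved as well. For Nanog against EV, 347 calls became 0 with 8 arrays and all features, 47 with no filter and 198 with the replicate block. For both genes against EV, 960 became 35, 125 and 530 in the same order. With array weights the calls rose to 834 and 1440 in these comparisons, and with a floor of 32 to 573 and 1287. The counts of 2, 9 and 8 members there went with more calls over all features.

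The log2 differences of the 8 members that passed in some comparison kept their direction in every alternative run. Many alternatives change only the spread or the set of features and not the estimate, and these members were picked for having passed. The shared direction is therefore little support. Fkbp4 with both genes against EV lay between 0.59 and 0.80 and passed in 12 of 18 alternatives, Hspe1 in 8 of 18, Hsp90aa1 in 7 of 18, Cct5 in 7 of 17 and Ptges3 in 6 of 17. Under quantile normalization and median centring the median of all features stayed within 0.01 of 0. The deposited arrays already had nearly the same sorted values, so these alternatives could change little and do not test the normalization. Replicate numbers were not tied to a shared source: deviations of same-numbered arrays correlated between -0.17 and 0.06 over 2300 bright features, so the replicate block is only an alternative. Leaving out 1 array can leave a group with 1 array, which is then assumed to vary like the others. Signal over background limits the dim members: 17 of the 35 had a mean log2 intensity of 9 or less, and these were left out of the comparisons that use the Sin3a group.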
